A study of Mus musculus with 17 samples.

Results

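Nur77 loss after 18 h of lipopolysaccharide (LPS) was examined in bone marrow-derived macrophages (BMDMs) by ATAC-seq, which reads out open chromatin as the sites where Tn5 transposase can insert adapters. The comparison rests on 6 of the 17 peak lists of the series, 3 from Nur77-deficient (KO) and 3 from wild type (WT) BMDMs, all given 100 ng/ml LPS for 18 h. KO and WT lists at 0 h and at 1 h of LPS, 3 per group apart from 2 for WT at 1 h, of which 1 is labelled replicate 1-2 and may pool samples, served to describe when the same loci were open. All cells came from male C57Bl6/J mice of 6 to 12 weeks. The KO mice were whole-body knockouts, made by crossing mice with a loxP-flanked Nr4a1 (the gene of Nur77) to CMV-Cre mice and breeding the Cre out again, although their genotype label reads "cre", and the WT mice were littermates. The sources used here do not say that the 3 lists of a group came from separate mice, so the spread between lists may be technical.

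Nur77 is an orphan nuclear receptor and an immediate-early gene product that binds DNA as a monomer at the NBRE motif. LPS is sensed by Toll-like receptor 4 and activates the transcription factors NF-kB and AP-1 within minutes, followed by interferon signaling in the next hours. These factors act at enhancers that the macrophage lineage factors PU.1 and C/EBP keep open and at sites that open only after stimulation, so a late time point shows chromatin after the first wave has passed.

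In each list, entries with the same interval were collapsed to the one with the smallest p-value, and the best 24389 peaks by p-value were kept, the number in the shortest of the 17 lists. Kept intervals were merged into loci, and 26494 loci were seen in at least 2 of the 6 lists at 18 h. A locus was KO-only when it held a kept peak in 3 of 3 KO lists and 0 of 3 WT lists, and WT-only in the reverse case. Of these, 93 loci (0.351%) were KO-only and 459 (1.73%) WT-only, against 14005 loci (52.9%) with a peak in all 6 lists. With 3 lists against 3, an exact permutation test of 1 locus cannot go below p = 0.1, so these counts carry no test.

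The lists of the genotypes were not equally deep. The KO lists held 36136, 29568 and 32187 collapsed peaks and the WT lists 61492, 52204 and 46364. The recovered depth, in background reads per kb, was 1.59, 1.10 and 1.76 in KO and 8.38, 6.19 and 4.62 in WT. Median peak width was 167, 616 and 557 bp in KO and 1210, 904 and 829 bp in WT, so KO replicate 1 stood apart with its narrow peaks. None of these 3 measures overlapped between genotypes (two-sided exact permutation test, p = 0.1 each, the smallest value possible). At 18 h depth and genotype therefore cannot be told apart, and a rank within a list was used in place of a signal level. In these bulk samples a peak in fewer cells and a weaker peak in all cells cannot be told apart either. The labels give no batch. Promoters of 10 of 10 macrophage markers were seen among the tested promoters and 8 of them in all 6 lists, against 1 of 8 for B cells, 1 of 10 for T and NK cells, 1 of 7 for dendritic cells, 1 of 7 for stromal cells, 3 of 10 for neutrophils and precursors and 0 of 7 for erythroid cells.

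The sequences of 5 loci on which the results turn are given as 200 bases around the summit, on the plus strand of GRCm38 (mm10, RefSeq sequence). The loci at Pebp4, Gfra2 and Hfe2 are among the best-ranked and have no peak at all in the whole lists of the other genotype. Those near H2al2a and Olfr693 are the best-ranked LPS-induced loci of each direction. Capitals mark matches to NBRE (AAAGGTCA) at H2al2a and to PU.1 (GAGGAAGT) at Gfra2 and Hfe2. AP-1 (TGACTCA), C/EBP (TTGCNNAA) and NF-kB were sought as well, on both strands. Among all tested loci, 15.2% held AP-1, 0.906% NBRE, 7.54% PU.1, 11.5% C/EBP and 4.47% NF-kB within 100 bp of the summit.

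Pebp4 intron near Egr3, KO-only, chr14:70000643-70000842: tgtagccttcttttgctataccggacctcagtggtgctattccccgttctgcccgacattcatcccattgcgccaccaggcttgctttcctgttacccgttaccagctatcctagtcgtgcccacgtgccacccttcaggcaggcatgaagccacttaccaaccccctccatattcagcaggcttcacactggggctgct

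Gfra2, KO-only, chr14:70981178-70981377: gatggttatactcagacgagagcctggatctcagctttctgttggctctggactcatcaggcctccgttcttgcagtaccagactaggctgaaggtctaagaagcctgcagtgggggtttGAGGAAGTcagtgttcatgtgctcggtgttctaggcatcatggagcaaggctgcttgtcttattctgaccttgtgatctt

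H2al2a, KO-only, chr2:17970296-17970495: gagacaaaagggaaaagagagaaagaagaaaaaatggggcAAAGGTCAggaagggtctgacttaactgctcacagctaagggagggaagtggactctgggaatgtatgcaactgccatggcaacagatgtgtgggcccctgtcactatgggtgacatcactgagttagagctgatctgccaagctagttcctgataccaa

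Hfe2, WT-only, chr3:96489156-96489355: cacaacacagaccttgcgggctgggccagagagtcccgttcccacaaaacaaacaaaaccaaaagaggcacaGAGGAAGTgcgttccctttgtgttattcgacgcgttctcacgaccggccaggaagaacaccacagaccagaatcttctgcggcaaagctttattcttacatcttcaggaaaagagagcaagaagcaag

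Olfr693, WT-only, chr7:106651801-106652000: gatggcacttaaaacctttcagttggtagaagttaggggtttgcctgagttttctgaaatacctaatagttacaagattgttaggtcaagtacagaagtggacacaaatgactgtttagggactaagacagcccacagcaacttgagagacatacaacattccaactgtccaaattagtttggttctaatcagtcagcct

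The best-ranked KO-only locus lay in an intergenic stretch 19008 bp from the start of Ifi203, a member of the interferon-inducible p200 family (chr1:173961248-173962154). Its ranks were 3312, 7450 and 4714 in the KO lists, and its best WT rank in the whole lists was 32375, with no peak in WT replicate 3. Next was an intron of Pebp4, 76460 bp from Egr3, which encodes an immediate-early zinc finger factor (chr14:70000305-70000951). This locus ranked 5346, 5269 and 5354 in the KO lists and had no peak in any whole WT list, so the 3 KO lists were close together. An intron of Ano6, the gene of a phospholipid scramblase, ranked 5346, 6804 and 10508 in KO. The locus 39392 bp from Gfra2, a receptor of the GDNF family (chr14:70980759-70981362), ranked 6567, 12930 and 9082 in KO and had no WT peak. A locus 9136 bp from Serpina3n, an acute-phase protease inhibitor, ranked 5924, 8136 and 20004 in KO against 48318, 35206 and 41192 in WT. The other loci of the 10 best lay near H2al2a, Tor1b, Ralgapa2 and March5 and in an intron of Itpr1, the gene of an inositol trisphosphate receptor.

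The best-ranked WT-only locus lay 35916 bp from Hfe2, which encodes hemojuvelin (chr3:96488016-96489596), with ranks of 5697, 6145 and 6804 in the WT lists and no peak in any KO list. An intron of Fcrl1, an Fc receptor-like gene (chr3:87401064-87401933), ranked 11324, 10590 and 12652 and had no KO peak. An intron of Ptprj, a receptor tyrosine phosphatase, ranked 14582, 11228 and 11301 in WT and reached 28007 and 24424 in KO replicates 1 and 3, outside the kept peaks. The promoters of Trim12a, a member of the TRIM family, at 9244, 14720 and 16064, and of Hrh1, the histamine H1 receptor, at 15549, 14104 and 11624, were among the 10 best and had no KO peak. Loci near Stc1 and Ddr2 and the promoters of Wdr70 and Cfap126 were also among the 10 best.

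**Figure D1:**
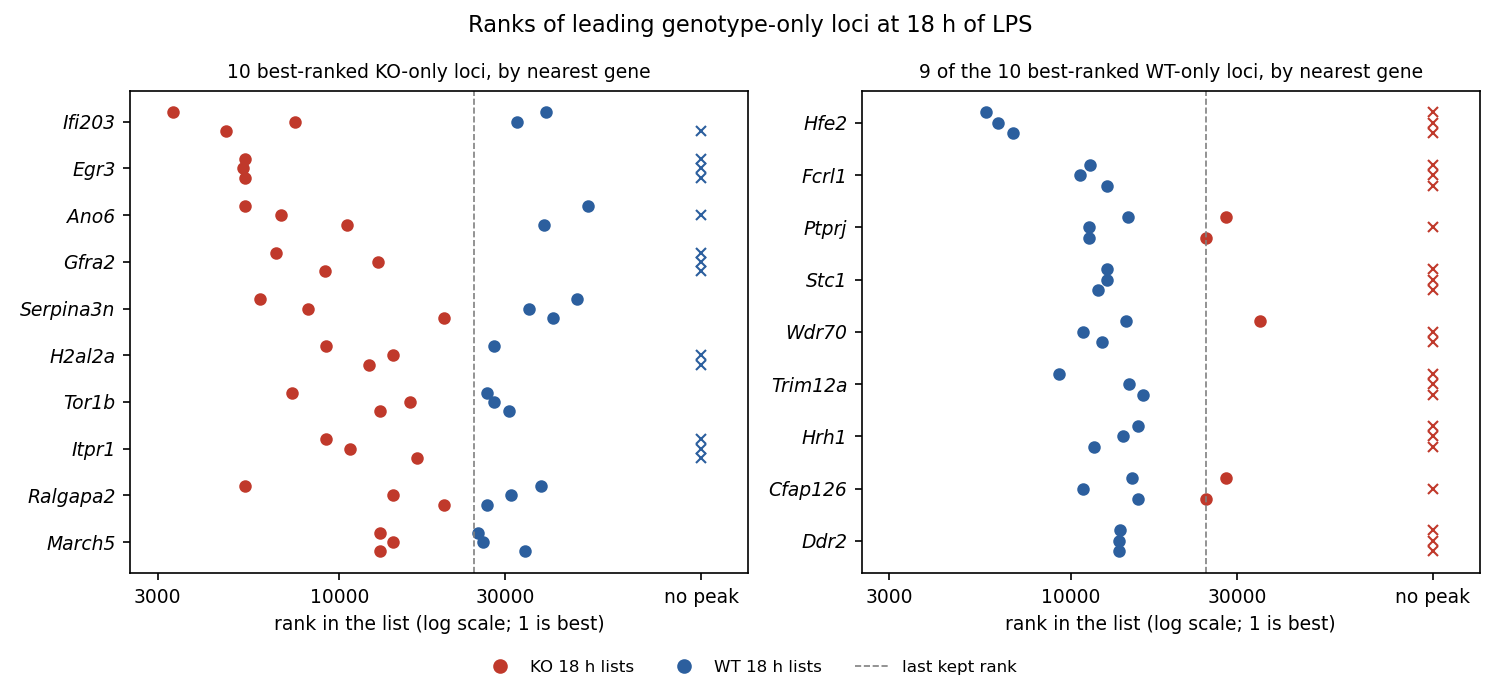
Rank in each 18 h list of the 10 best-ranked KO-only loci (left) and 9 of the 10 best-ranked WT-only loci (right), on a log scale where 1 is the best rank, with KO lists in red and WT lists in blue. Crosses stand for no peak in the whole list and the dashed line for the last kept rank of 24389. The WT-only locus near Hfe2 has 3 WT ranks between 5697 and 6804 and no KO peak, whereas the KO-only locus near March5 has WT ranks that begin at 25060.

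Beyond these leading loci, most of the genotype-only loci sat near the limit of the kept peaks. The median of their mean ranks was 18717 for KO-only and 20262 for WT-only loci, against 8668 and 10626 for all loci in 3 of 3 KO or WT lists. The worst own rank fell in the last 10% of the kept peaks for 49 of 93 KO-only and 264 of 459 WT-only loci. Just outside the rule were 118 loci with peaks in 3 KO lists and 1 WT list, and 1594 loci with peaks in 3 WT lists and 1 KO list. In the whole lists, 75 of 93 KO-only loci (80.6%) had a peak in all 3 WT lists and 5 had none, and the median best WT rank over the 88 with any peak was 26688. These 5 were the Pebp4 intron near Egr3, a further intronic locus of Pebp4, the Gfra2 locus, the Itpr1 intron and a second locus near Ifi203. Of the 459 WT-only loci, 28 (6.10%) had a peak in all 3 whole KO lists and 108 (23.5%) in none. The whole WT lists were longer than the KO lists, so these absences are not on an equal footing.

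Loci built from windows of 250 bp on each side of the summit gave another balance. Of 28488 such loci, 302 (1.06%) were KO-only and 480 (1.68%) WT-only. However, 194 of the 302 KO-only summit loci were overlapped by kept intervals in 3 of 3 WT lists, as a wide WT peak with its best summit elsewhere covered them, while 0 of 480 WT-only summit loci were covered by intervals in 3 of 3 KO lists. When every deposited summit inside the kept intervals was used, 109 KO-only and 541 WT-only loci were counted. Of the loci called by intervals, 91 of 93 KO-only and 456 of 459 WT-only loci were also called in the same direction by summit windows.

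To ask whether these loci were opened by LPS, the same loci were looked up in the 0 h lists of the same genotype. A locus was termed LPS-induced when none of the 3 own 0 h lists had a kept peak there. Of the KO-only loci 52 of 93 (55.9%, 95% Wilson interval 45.8 to 65.6) were LPS-induced, and 24 (25.8%) had a peak in all 3 KO lists at 0 h. Of the WT-only loci 125 of 459 (27.2%, 23.4 to 31.5) were LPS-induced, and 263 (57.3%) had a peak in all 3 WT lists at 0 h. These intervals cover counting error only. By summit windows the shares were closer, 35.4% for KO-only and 28.1% for WT-only loci. Among all loci with a peak in 3 of 3 lists at 18 h, 6.15% of 14484 in KO and 9.23% of 20734 in WT were LPS-induced, at the better median ranks given above. Of these LPS-induced loci, 10 KO-only and 4 WT-only loci were absent from the whole 0 h lists of their genotype as well (10.8% and 0.871% of members), so the others had a peak at 0 h that fell outside the kept number.

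The best-ranked LPS-induced KO-only locus lay 26562 bp from H2al2a, a histone H2A variant gene (chr2:17970339-17970696), and held the NBRE shown above in capitals. It ranked 9176, 14306 and 12164 in the KO lists and 27858 in WT replicate 1, with no peak in WT replicates 2 and 3 and none kept in any list at 0 h or 1 h. A locus near Tor1b lay within 10 kb of Ptges, the inducible prostaglandin E synthase, and ranked 7299, 15965 and 13104 in KO against 26688, 27784 and 30765 in WT. An intron of Ciita, the master regulator of major histocompatibility complex class II genes (chr16:10498240-10498581), held an NF-kB motif. Its KO ranks were 11542, 20443 and 15381 and its WT ranks 24558, 24264 and 36288, so WT replicates 1 and 2 missed the kept peaks narrowly, and the locus was kept in 3 of 3 KO lists and 2 of 2 WT lists at 1 h. An intron of Il15, a cytokine that sustains T and NK cells, ranked 17260, 23272 and 14184 in KO against 29106, 32375 and 34245 in WT. A locus 21115 bp from Dusp1, a phosphatase that switches off MAP kinases, was LPS-induced as well, with KO ranks of 20182, 23272 and 20004. The KO-only locus 6114 bp from Il10, an anti-inflammatory cytokine gene, was different, since it was kept in all 6 lists at 0 h.

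Among the LPS-induced WT-only loci, the first lay 26584 bp from Olfr693, an olfactory receptor gene, with WT ranks of 14041, 13779 and 13754 and no KO peak at 18 h. A locus 4058 bp from Fignl2 ranked 15954, 17007 and 12299. An intronic locus of Pebp4 (chr14:70024165-70025116), 52334 bp from Egr3, ranked 16426, 20324 and 14170 in WT and had no KO peak, so introns of Pebp4 held both KO-only and WT-only loci. An intron of Tlr13, which senses bacterial ribosomal RNA, ranked 21968, 16193 and 14170 and was kept in every WT and KO list at 1 h. The promoters of Ifi209 and Ifi213, both interferon-inducible p200 genes, were kept in no 0 h list of either genotype. Ifi209 ranked 16656, 20898 and 16064 in WT and Ifi213 24059, 21504 and 24298, with no KO peak at either. A locus 81721 bp from Inhba, which encodes the activin A subunit, ranked 16656, 16604 and 18408 in WT and only just fell outside the kept peaks of KO replicate 2, at 23272. This rank is shared by all peaks tied at the limit, of which only a part was kept.

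Viewed from the side of induction, 1914 loci were LPS-induced in WT, of which 785 (41.0%) had a peak in all 3 KO lists at 18 h and 125 (6.53%) in none. In KO, 891 loci were LPS-induced, of which 705 (79.1%) had a peak in all 3 WT lists and 52 (5.84%) in none. The lists differed in this way for all loci too. Of all 20734 loci in 3 of 3 WT lists, 14005 had a peak in all 3 KO lists and 2.21% in none. Of all 14484 loci in 3 of 3 KO lists, the same 14005 had a peak in all 3 WT lists and 0.642% in none. Of the LPS-induced members, 9 KO-only and 18 WT-only loci were already kept in all own lists at 1 h, whereas 32 and 86 were kept in none.

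**Figure D2:**
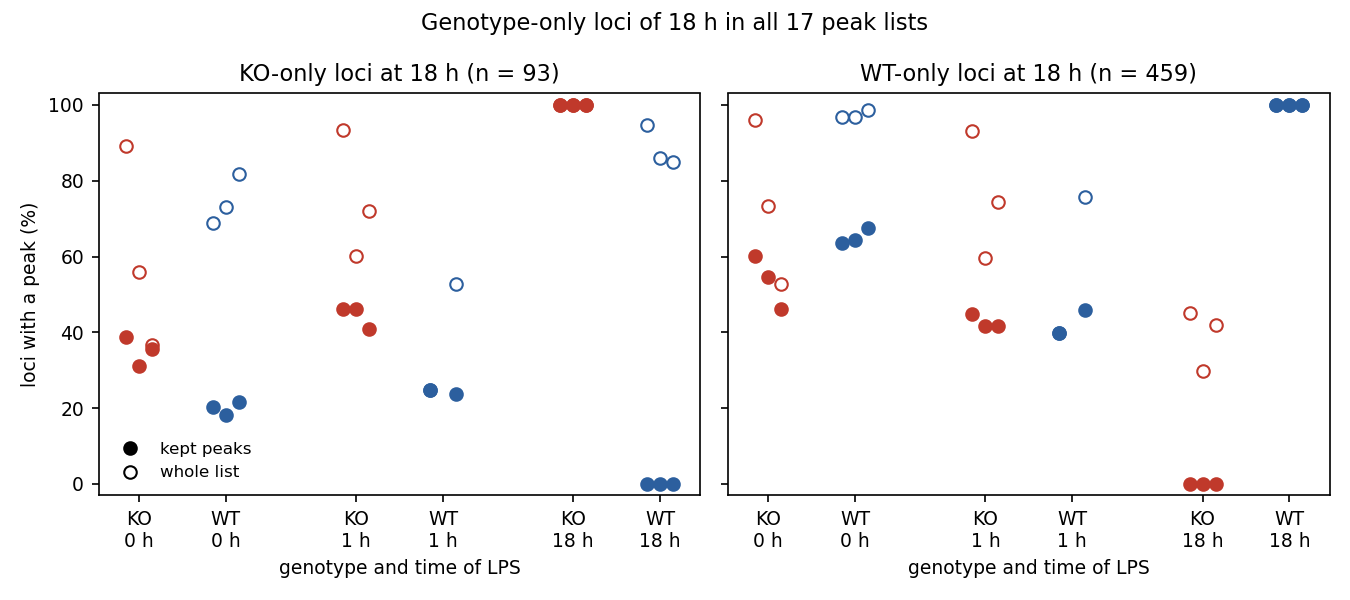
Percentage of the 93 KO-only loci (left) and 459 WT-only loci (right) of 18 h that held a peak in each of the 17 lists, by genotype and time of LPS, with filled points for kept peaks and open points for whole lists. At 18 h the kept values are 0 or 100% by the rule, and in the whole lists the KO-only loci reach 84.9 to 94.6% in WT while the WT-only loci reach 29.8 to 45.1% in KO.

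At 0 h, before LPS, the KO-only loci held a kept peak in 31.2 to 38.7% of cases in KO lists and 18.3 to 21.5% in WT lists. The WT-only loci did so in 46.2 to 60.1% in KO and 63.6 to 67.5% in WT lists. Applied to the 0 h lists, the same rule found 113 KO-only (0.436%) and 205 WT-only loci (0.790%) of 25944. Of the members at 18 h, 10 of 93 KO-only and 16 of 459 WT-only loci were all-or-none in the same direction at 0 h, and 1 of each in the opposite direction. At 1 h of LPS, with only 2 WT lists, the rule found 449 KO-only (1.72%) and 300 WT-only loci (1.15%) of 26139. The smaller number of WT lists means that these counts cannot be compared directly with those at 0 h and 18 h. Among the members at 18 h, 8 KO-only and 5 WT-only loci differed in the same direction at 1 h, and 0 and 4 in the opposite one. The loci that already differed at 0 h were frequent among the best ranks, as 5 of the 10 best KO-only and 6 of the 10 best WT-only loci were among them. These included the leading loci near Ifi203, Ano6, Gfra2, Serpina3n, Hfe2, Fcrl1, Stc1, Hrh1 and Ddr2 and the Pebp4 intron near Egr3, which were therefore not LPS-induced.

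Several of these 26 loci lay close to each other. On chromosome 14, 5 of them fell within 1.89 Mb (chr14:69088974-70981362), of which the one near Stc1 was WT-only and those at Pebp4, Egr3, Dok2 and Gfra2 were KO-only. The stretch on chromosome 14 held 49 tested loci, of which 4 were KO-only and 4 WT-only at 18 h. On chromosome 1, 4 fell within 3.83 Mb (chr1:170136306-173962154), with Ddr2 and Nectin4 WT-only and both Ifi203 loci KO-only. This stretch held 134 tested loci, of which 3 were KO-only and 9 WT-only at 18 h. On chromosome 3 the WT-only loci near Ctsk, Adamtsl4 and Hfe2 fell within 0.995 Mb, where 0 KO-only and 5 WT-only loci of 66 tested lay at 18 h. Around Nr4a1 itself, on chromosome 15, 0 KO-only and 2 WT-only loci of 69 tested lay within 1 Mb, both near Fignl2, and 2 KO-only and 3 WT-only loci of 247 tested lay within 10 Mb, beside 0.351% and 1.73% of all tested loci.

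Members were mostly distal. Of the KO-only loci 3 (3.23%) and of the WT-only loci 64 (13.9%) had a summit within 1 kb of the start of a protein-coding transcript, against 36.1% of all tested loci and 48.9% of loci in all 6 lists. Introns held 45.2% of KO-only and 39.9% of WT-only loci. The median distance to a start was 19008 bp for KO-only and 14695 bp for WT-only loci, against 5966 bp for all tested loci. The KO-only promoters were those of Cfap46, Bpi and Atxn2. Bpi encodes a bactericidal protein that binds LPS, and its promoter ranked 20182, 20443 and 18250 in KO against 24558, 26824 and 25422 in WT, a narrow gap across the limit.

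Motifs were counted within 100 bp of the summits of members. AP-1 was found at 14 of 93 KO-only loci (15.1%) and 94 of 459 WT-only loci (20.5%), and away from promoters at 14.4% and 22.8% against 21.9% of all tested loci. NBRE was found at 2 KO-only loci (2.15%) and 2 WT-only loci (0.436%), against 0.906% of all tested loci. PU.1 was found at 5.38% and 12.4% against 7.54%, and C/EBP at 15.1% and 16.8% against 11.5%. NF-kB was found at 4 KO-only (4.30%) and 14 WT-only loci (3.05%) against 4.47%. The members share their rank range and their position away from promoters, so these shares are given as descriptions.

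Members at listed genes of the inflammatory response were counted among loci in the gene body or within 10 kb of it, to be read against the 0.351% KO-only and 1.73% WT-only of all tested loci. Of 58 loci at inflammatory cytokine genes, 2 were KO-only (3.45%, Il10 and Il15) and 0 WT-only. Loci at effector enzymes of the LPS response included 1 KO-only locus of 49 (2.04%), at Ptges, and those at antigen presentation and costimulation genes 2 KO-only loci of 47 (4.26%), at Ciita and at Pdcd1lg2, the gene of a ligand of PD-1. Within this distance no locus was all-or-none at the genes of the AP-1 family (58 loci), of NF-kB subunits and inhibitors (40 loci), of chemokines (26 loci), of interferon-stimulated genes (74 loci) or of LPS sensing (44 loci). Of 40 loci at macrophage marker genes 3 were WT-only (7.5%), at Csf1r, the receptor for macrophage colony-stimulating factor, and at Fcer1g, an adaptor of activating Fc receptors. At markers of other cells, 1 of 7 loci at B cell genes (14.3%, Ms4a1) and 1 of 9 at T and NK cell genes (11.1%, Lck) were WT-only. None was WT-only of 10 loci at neutrophil and precursor genes, 11 at dendritic, 4 at erythroid and 4 at stromal cell genes. Of 57 loci at lineage and enhancer factors 2 were WT-only (3.51%), at Runx1 (WT ranks 16656, 17007 and 14597) and at Bhlhe41. Loci at signal brakes included 1 WT-only locus of 50 (2.00%), at Bcl6, a transcriptional repressor, and those at lipid and cholesterol genes 1 KO-only locus of 43 (2.33%), at Fasn, the fatty acid synthase. Farther away, where a listed gene was only the nearest one, there were further members. The locus nearest to Maf, which encodes a bZIP factor and lies 399412 bp away in an intron of Wwox, was WT-only with no KO peak. Loci nearest to Jun, to Ch25h, which makes 25-hydroxycholesterol, and to Lpl, the lipoprotein lipase, were WT-only too. Both groups of loci contained a regulator of MAP kinases, Dusp1 near a KO-only and Dusp6 near a WT-only locus.

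Read by gene promoter, a gene was KO-only when a kept summit lay within 1 kb of one of its starts in 3 of 3 KO lists and 0 of 3 WT lists. Of 10435 gene promoters with such a summit in at least 2 lists, 18 (0.172%) were KO-only and 63 (0.604%) WT-only. In 13 of the 18 KO-only genes, however, a kept WT interval touched the promoter in 3 of 3 WT lists. Among these 13 were Acod1, which makes the antimicrobial metabolite itaconate (KO ranks 5346, 3824 and 6962), Cd68, a macrophage marker (3312, 2385 and 861), Ccrl2, Cd180 and Spred2. With intervals in place of summits 4 KO-only genes of 10637 (0.0376%) were counted, which were Bpi, Cfap46, Mtus1 and Zc2hc1c, and 92 WT-only genes (0.865%), of which 60 were also WT-only by summit. Of the 63 WT-only genes 44 had the promoter peak in all 3 WT lists and 38 in all 3 KO lists at 0 h. In 14 of the 63 no KO list held the promoter summit at any rank. Among them were Ifi209, Ifi213, Trim12a, Hrh1, Tarbp1 (WT ranks 12719, 16193 and 15552) and Jaml (18134, 14104 and 23241), an adhesion molecule of leukocytes. Kmt2d, a histone H3 lysine methyltransferase, was also among them (5818, 8190 and 7672), although a kept KO interval touched its promoter in 2 lists.

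The all-or-none rule leaves out differences of degree, so the 14005 loci with a kept peak in all 6 lists were compared by their ranks within a list. Every KO rank was better than every WT rank at 856 loci (6.11%), and every WT rank was better at 1414 (10.1%). With 3 ranks against 3, each of these outcomes is 1 of 20 possible divisions of the ranks, and no locus was tested. A better rank means a stronger peak relative to the rest of the same list and not a more open site. The directions were split by position, as 2.92% of 6851 promoters had better KO ranks and 13.0% better WT ranks, against 9.17% and 7.34% of 7154 distal loci. Without KO replicate 1 these shares were 8.73% and 19.9% for promoters and 17.3% and 14.0% for distal loci. Shares without a list rise by construction, since fewer ranks have to separate.

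Among distal loci, those with no kept peak at 0 h leaned to KO. A peak at 0 h outside the kept number is possible at these loci. Of 574 distal loci kept in no 0 h list, 15.2% had better KO ranks and 4.53% better WT ranks, whereas the 5464 distal loci kept in all 6 lists at 0 h had 7.98% and 8.11%. The same order was seen at each rank level of the loci kept in no 0 h list. The shares were 20% against 4% with a mean rank up to 8000 (25 loci). From 8000 to 16000 they were 17.8% against 3.68% (326 loci), and beyond that 10.8% against 5.83% (223 loci). Without KO replicate 1 the shares were 24.9% and 9.23% for loci kept in no 0 h list. They were 16.0% and 15.1% for loci kept in all 6 lists at 0 h. Distal loci with AP-1 had better KO ranks in 12.0% and better WT ranks in 5.60% of 1785 cases, and those without AP-1 in 8.21% and 7.92% of 5369. For distal loci with NF-kB the shares were 7.06% and 10.7% of 411, and with NBRE 6.52% and 10.9% of 92. Without KO replicate 1, NF-kB loci gave 14.8% in both directions and NBRE loci 16.3% and 14.1%, so the lean to WT of these loci rested on that list. AP-1 loci gave 19.6% and 12.9% without it, and distal loci without AP-1 16.6% and 14.4%. That list also had the largest AP-1 share of kept peaks, 16.8% against 12.4% and 14.3% in the other KO lists.

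**Figure D3:**
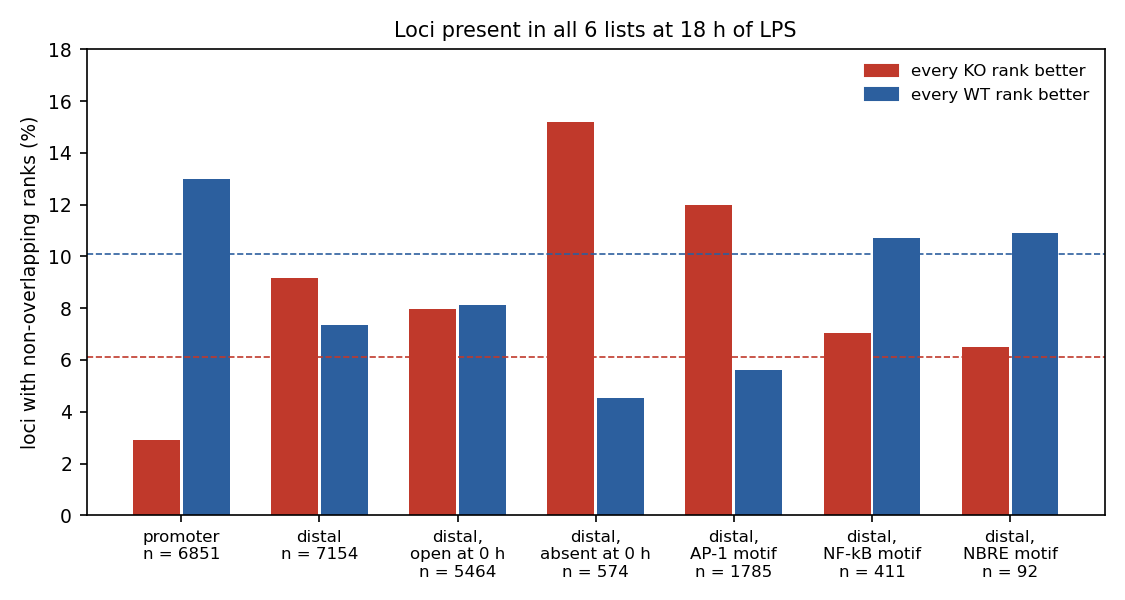
Percentage of loci with a kept peak in all 6 lists at 18 h at which every KO rank (red) or every WT rank (blue) was better, for promoters, distal loci and subsets of the distal loci, with dashed lines at the 6.11% and 10.1% of all such loci. The distal loci labelled absent at 0 h are those kept in no 0 h list. They have red above blue, 15.2% against 4.53%, and promoters the reverse, 2.92% against 13.0%.

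Among loci with better KO ranks, the largest ratio of mean ranks was 6.16, in an intron of Chl1, a cell adhesion gene (KO ranks 19, 882 and 346 against WT ranks 3822, 2614 and 1239). The promoter of Tmcc3 followed at 4.23, an intron of Gm21738 at 4.16 and the promoter of Ifi204, another p200 family gene, at 4.11 (798, 712 and 628 against 3234, 3290 and 2258). Without KO replicate 1 the ratio was 4.17 at Chl1, 4.52 at Tmcc3, 4.64 at Gm21738 and 4.37 at Ifi204. A locus 11631 bp from S100a10 with an AP-1 motif had a ratio of 3.14. Among LPS-induced loci with better KO ranks were introns of Cog4 (2.52), Utp6 (2.22), Hvcn1 (2.09), which encodes a proton channel of phagocytes, and Sgms2 (2.05), a sphingomyelin synthase. On the other side, the promoter of Slc25a28, a mitochondrial iron importer, had a ratio of 15.4, with WT ranks of 58.0, 69.5 and 63.0 against KO ranks of 2529, 258 and 144. The promoters of Limk1 (12.2), Cic (10.5), Scaf11 (8.63) and Mknk2 (8.17) came next. In each of these 5, KO replicate 1 had the worst rank of the 6 lists. Without it the ratios were 3.17, 2.23, 2.95, 3.72 and 2.04 in the same order of genes, so both their size and their order rested on that list. For Chl1 the ratio without it was 4.17, and those of Tmcc3 and Ifi204 were 4.52 and 4.37. LPS-induced loci with better WT ranks included introns of Mtus1 (2.49) and Itpr2 (1.83) and a locus 1032 bp from Fpr1, the formyl peptide receptor (1.41, with an NF-kB motif).

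Of the listed genes, 139 had a promoter summit in all 6 whole lists. Every KO rank was better at 4 of these and every WT rank at 15. Neither share was above the 2.92% and 13.0% of promoter loci above, which were kept in all 6 lists. Cxcl10, an interferon-induced chemokine, ranked 3026, 3270 and 3489 in KO against 5876, 6250 and 4685 in WT. Isg20, an interferon-stimulated exonuclease, and the transcription factors Runx1 and Bhlhe40 also had better KO ranks. The 15 with better WT ranks included the AP-1 related genes Fosl2, Atf2, Atf7 and Maf. Fosl2 ranked 7299, 3824 and 4180 in KO against 2212, 3010 and 3420 in WT. Tnf ranked 7299, 2803 and 3066 in KO against 2300, 2328 and 1239 in WT, and the chemokine gene Ccl2 3640, 6227 and 6086 against 2874, 2286 and 3256. Promoters of genes that restrain signaling, Dusp2, Socs1 and Socs3, had better WT ranks, as had that of the transcription factor gene Klf6, with Socs3 at 4400, 3038 and 3268 in KO against 1797, 2178 and 2153 in WT. The promoters of Cebpd, Clec4e, Mylip, Tnfsf9 and Adgre1, the gene of the F4/80 antigen, were the rest. Counting all loci at the listed genes that were kept in all 6 lists, 8 of 35 at signal brakes (a list that also holds Klf6), 7 of 41 at AP-1 family genes and 0 of 19 at NF-kB subunits and inhibitors had better WT ranks, and 0, 3 and 0 better KO ranks, beside 10.1% and 6.11% of all loci kept in all 6 lists. Better KO ranks were seen at 3 of 23 loci of LPS effector enzymes (13.0%) and 3 of 44 of interferon-stimulated genes (6.82%). They were also seen at 2 of 13 loci of Nr4a genes and RXR partners, both at Rxrb and none at Nr4a1, Nr4a2 or Nr4a3. Better WT ranks were seen at 0, 1 and 0 loci of these gene lists. The promoter of Il6 overlapped between genotypes, as did those of Fos, Jun, Jund, Atf3, Egr1 and Nos2. Other promoters of the signal brake list overlapped too, those of Dusp1, Dusp4, Dusp5, Dusp6, Cish, Klf2, Klf4 and Egr2.

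**Figure D4:**
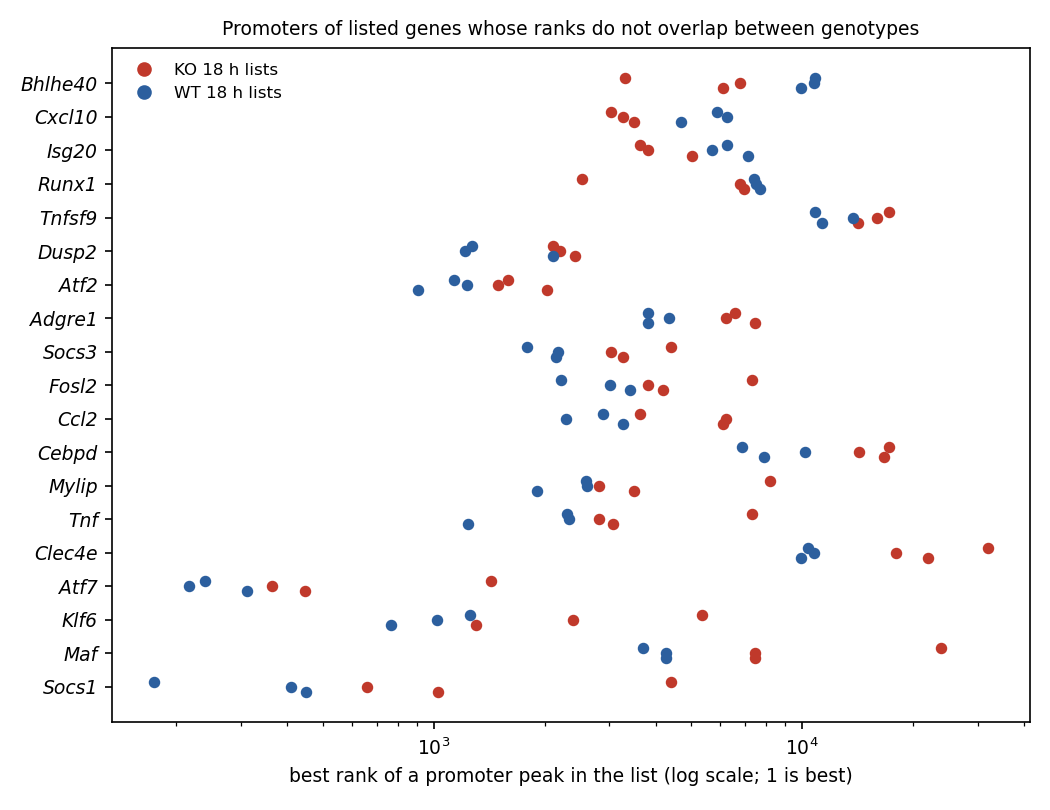
Best rank of a promoter peak in each 18 h list, on a log scale where 1 is best, for the 19 listed genes whose KO (red) and WT (blue) ranks do not overlap. Bhlhe40, Cxcl10, Isg20 and Runx1 at the top have better KO ranks and the 15 others better WT ranks, and in several of them, such as Socs1 and Maf, KO replicate 1 is the farthest point.

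Shares over all kept peaks of a list were compared as well. The promoter share was 38.5% ± 0.962 in KO and 38.8% ± 0.143 in WT (SD, n = 3 each, two-sided exact permutation test, p = 0.700). The AP-1 share was 14.5% ± 2.17 against 14.7% ± 0.196 (exact p = 0.700) and the NBRE share 0.925% ± 0.0381 against 0.918% ± 0.0287 (exact p = 1.00). NF-kB (4.47% ± 0.250 against 4.81% ± 0.0964) and C/EBP (11.0% ± 0.535 against 11.6% ± 0.0995) did not overlap between genotypes, with exact p = 0.1 each. No change of the KO minus WT difference from 0 h to 18 h passed 0.05 in any of the 11 measures (exact permutation test within time, lowest p = 0.0800, for NBRE). The Jaccard index of loci averaged 0.782 for pairs of 1 genotype and 0.753 for mixed pairs, so that the former exceeded the latter by 0.0298 (one-sided exact permutation test, p = 0.1, the smallest of 10 divisions). It was 0.867 within WT and 0.697 within KO, so KO lists differed among themselves more than WT and KO lists on average. Without any 1 of the WT lists the difference was below 0, from -0.0158 to -0.0111.

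At Nr4a1 (chr15:101254269-101274795, plus strand) the promoter peak was kept in all KO and WT lists at 0 h and 1 h. At 18 h it was in no KO list at any rank, and WT lists held it at ranks 34955, 25930 and 23241. An Nr4a1 locus at chr15:101262097-101263296 ranked 23854 and 12164 in KO replicates 1 and 3, with no peak in replicate 2, against 10130, 12154 and 10988 in WT. At 0 h this locus ranked 11732, 16940 and 18588 in KO against 3742, 4781 and 5434 in WT, and at 1 h 6613, 10441 and 9792 against 3594 and 4971, so every WT rank was better at all 3 times, at 18 h by a narrow margin over KO replicate 3. Which exons were flanked by loxP is not given in the sources used here, and a peak at Nr4a1 is no check of the deletion.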

How the data were processed

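ATAC-seq peak lists of 17 BMDM samples were used, and samples were grouped by genotype and time of LPS as the labels give them. The authors trimmed reads with cutadapt 2.6, mapped them to mm10 and processed them with the snakeATAC pipeline under default settings. Peaks were called per sample, the peak caller is not given in the sources used here, and the peak names carry a mapping quality of 20, removal of mitochondrial reads and duplicates and a q-value of 0.001. Each deposited list gives an integer score per entry (10 times the −log10 q-value, rounded down, in at least 99.7% of entries). The deposited fold column is the ratio of pileup to background at the summit, both plus 1. The deposited p-value and q-value columns are on the −log10 scale. The authors compared read counts with DiffBind 3.0.15, which peak lists do not allow.

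Entries with 1 interval were collapsed to the smallest p-value and ranked within a list by it, with the average rank for ties. Of each list 24389 peaks were kept. Peaks tied at the limit were drawn with a fixed seed and made up 5.30 to 10.7% of the kept peaks in the KO lists at 18 h. Loci were merged kept intervals, or merged windows of 250 bp on each side of a summit, seen in at least 2 lists. Depth was recovered as the background level that turns the fold of all entries into whole reads (within 0.02 reads, scaled up for entries of many reads) with matching Poisson p-values, divided by the shortest peak width, and is a relative index. In the 6 lists the lowest peak rested on 4 to 10 reads, and a fold or p-value depends on depth, so none was compared between lists. Genes were protein-coding genes of GENCODE release M21, and a promoter reached 1 kb from a start. Loci were counted at a listed gene when the summit lay in its body or within 10 kb, and could also be named where it was the nearest gene. Motifs on either strand within 100 bp of a summit were counted, with NF-kB, ISRE and CTCF by their consensus, in the RefSeq GRCm38 sequence.

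Groups were compared by exact permutation tests over lists. Named loci were, in each direction, the 10 best by mean rank, up to 10 promoters, up to 10 LPS-induced loci, up to 10 loci absent from the whole lists of the other genotype and up to 3 per gene list, among loci called both by intervals and by summits. Genes named for a shared promoter were those of the lists. The members, the gene lists and the rules were chosen with earlier results of these data known. Of these, 1 WT-only locus of the 10 best and 1 promoter gene are not reported here. Alternatives were other kept numbers, overlaps, window widths and promoter distances, each list left out, and a replicate block. The deviations of same-numbered KO and WT lists from their group means correlated at -0.181, -0.105 and -0.00816. Those of other pairs of lists ranged from -0.140 to 0.236. With 3 lists per group these values cannot decide whether the numbers pair the samples, which were treated as unpaired outside the replicate block. The counting was tested on simulated lists. Python 3.11.15, numpy 2.4.6, pandas 2.3.3, scipy 1.17.1, pysam 0.24.0 and samtools 1.23.1 were used.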

Additional observations from a re-analysis of the deposited data

How the results depend on the processing

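The counts of genotype-only loci moved with the number of peaks kept and with what counts as absent. KO-only interval loci numbered 93 and became 14 with all collapsed peaks, 5 when absent from the whole WT lists and 13 when a peak had to cover 50% of the locus. WT-only interval loci numbered 459 and became 175 with the 10000 best peaks, 696 with the number in the shortest of the 6 lists, 5750 with all collapsed peaks, 108 when absent from the whole KO lists and 4995 at 50% cover. KO-only summit loci (302) became 140 with the 10000 best peaks, 200 when absent from the whole lists and 109 with every deposited summit, and WT-only summit loci (480) became 184 with the 10000 best peaks, 5723 with all peaks and 120 when absent from the whole lists. Thus WT-only outnumbered KO-only loci in each of these settings but the summit loci absent from whole lists.

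Of the LPS-induced shares, that of KO-only loci became 35.4% by summit windows and 10.8% with whole 0 h lists, and that of WT-only loci 18.9% with 10000 peaks, 21.6% with 20000 and 0.871% with whole lists. KO-only promoter genes fell to 4 when an interval had only to touch the promoter, and WT-only genes numbered 113 with 10000 peaks and 14 when absent from the whole lists. Loci in all 6 lists with better KO ranks numbered 329 with 10000 peaks and 130 at a 2-fold ratio of mean ranks, and those with better WT ranks 474 and 425.

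The KO minus WT differences of the whole lists, in percentage points, often changed sign. With 10000 peaks they were -6.66 for the promoter share (exact permutation p = 0.1, the smallest possible), 2.43 for AP-1, 0.210 for ISRE, 0.773 for PU.1, 0.490 for C/EBP and 0.147 for CTCF. With all collapsed peaks they were 10.8 for the promoter share (exact permutation p = 0.1), 0.224 for AP-1, 0.140 for NF-kB and -0.0717 for NBRE. With motif windows of 50 bp on each side AP-1 was 0.109 and NBRE -0.0260, and with 250 bp AP-1 was 0.104.

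With 1 list left out the rule needs fewer lists by construction and calls more loci. KO-only interval loci then ranged from 123 to 366, WT-only from 630 to 1021, KO-only summit loci from 363 to 794 and WT-only from 661 to 1077. The LPS-induced share ranged from 48.6 to 62.3% for KO-only and from 22.6 to 33.7% for WT-only loci, promoter genes from 23 to 51 and from 74 to 248, and loci in all lists with better KO or WT ranks from 1128 to 2209 and from 1818 to 3052. The differences ranged from -0.720 to 0.241 for the promoter share (above 0 only without KO replicate 1), -1.38 to 0.775 for AP-1 (above 0 only without KO replicate 2), -0.298 to 0.0198 for ISRE and -0.00615 to 0.0287 for NBRE. The Jaccard difference ranged from -0.0158 to 0.0789, below 0 without any WT list.

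Keeping all tied peaks, chosen after seeing the data, gave 113 KO-only and 425 WT-only interval loci. With the replicate block (smallest p 0.25) the differences were the same by construction, such as -20723 peaks and -4.91 background reads per kb. The causes of these changes were not tested. Of 240 alternative values 159 were within the limits set for no change, 60 moved and 21 changed sign. The lowest pileup of a peak was 4, 4 and 5 reads in the KO lists, and what this depth changed was not tested.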

Other observations

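Of the genes nearest to members, 6 were nearest to loci of both directions at 18 h. These were Egr3, Dok2, Gfra2, Gng7, Metrnl and Plxnd1, of which the first 3 lie in the same stretch of chromosome 14. At Dok2, which encodes an adaptor that restrains tyrosine kinase signaling, the KO-only locus (chr14:70792695-70793054) ranked 20182, 20443 and 15381 in KO and was kept in all 3 KO lists at 0 h. The WT-only locus (chr14:70800301-70800873) lay less than 10 kb away, ranked 20174, 23496 and 20622 in WT, had no KO peak and was LPS-induced.

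Among the WT-only loci, 3 each lay nearest to BC067074 and to Elmo1, which encodes a regulator of Rac and phagocytosis. All 3 loci at BC067074 and 1 of the 3 at Elmo1 were LPS-induced. A pair of WT-only loci each lay near Fignl2, Rbm47, Lpin2 and Sptbn1, and both loci of each pair were LPS-induced. In other pairs, such as those near Sept9 and Zfp36l2, 1 locus was LPS-induced. In further pairs, such as those near Csf1r, Myo5a and Ncoa3, none was, beside 27.2% of all WT-only loci. Among the 393 bins of 5 Mb with at least 20 tested loci, those with the largest shares of members lay on chromosomes 13 (3 WT-only loci of 25 tested), 19 (2 KO-only and 4 WT-only of 57) and 4 (3 WT-only of 32), beside 0.351% KO-only and 1.73% WT-only of all tested loci.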
